A study of Mus musculus with 6 samples.

Results

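The difference in retinoic acid (RA) response between 2 lines of mouse F9 cells, 1 with retinoid X receptor knocked down and 1 control, was measured by RNA sequencing. F9 is an established teratocarcinoma line whose cells become endoderm-like under RA. The comparison uses 4 of the 6 libraries of the series, taken by their labels: F9 cells with a short hairpin RNA against the retinoid X receptor (shRxr) and F9 cells with a hairpin against GFP (shGFP, the control), each given 1 µM all-trans RA for the last 48 hours (RA) or left untreated (UT). The serum of all cultures was charcoal-stripped, a step that takes out retinoids. The labels do not say which of the receptor genes the hairpin targets, how many clones a line holds or how it was made, and the remaining libraries, of a Ctbp2 knock-down line (shCtbp2), serve only to choose genes in one step. Each group is 1 library, so no difference here has a replicate check and none was tested. Intervals take in counting error alone, and none of the variation between cultures.

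RA acts through nuclear receptors that bind DNA as pairs of an RA receptor and a retinoid X receptor, mostly at direct repeats of a short half-site. Without RA such a pair holds corepressors at many of its genes, and with RA it exchanges them for coactivators. In F9 cells the best-known targets are enzymes that break RA down, genes of retinoid transport, the anterior Hox genes and, later, genes of the endoderm and its basement membrane, while genes of the pluripotent state are turned down.

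The promoters of a pair of classical targets are printed here because each holds a match to an element that the receptor pair is known to bind. They are RefSeq sequences of build GRCm38.p6, from 250 bases before to 50 bases after the start of the gene, given 5′ to 3′ on the gene's strand. Capitals mark the half-sites of a match to the DR5 motif, which is a pair of half-sites separated by 5 bases, searched on both strands. The Cyp26a1 promoter lies at chr19:37697558-37697857 on the plus strand and its match begins at position 219 of the printed sequence. The Rarb promoter lies at chr14:16575427-16575726 on the minus strand and its match begins at position 198.
Cyp26a1: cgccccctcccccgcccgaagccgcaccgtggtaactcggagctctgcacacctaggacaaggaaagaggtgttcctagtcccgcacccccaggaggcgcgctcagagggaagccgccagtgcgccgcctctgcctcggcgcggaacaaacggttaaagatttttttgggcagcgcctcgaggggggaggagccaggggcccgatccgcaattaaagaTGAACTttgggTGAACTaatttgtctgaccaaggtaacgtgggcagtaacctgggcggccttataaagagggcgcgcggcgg
Rarb: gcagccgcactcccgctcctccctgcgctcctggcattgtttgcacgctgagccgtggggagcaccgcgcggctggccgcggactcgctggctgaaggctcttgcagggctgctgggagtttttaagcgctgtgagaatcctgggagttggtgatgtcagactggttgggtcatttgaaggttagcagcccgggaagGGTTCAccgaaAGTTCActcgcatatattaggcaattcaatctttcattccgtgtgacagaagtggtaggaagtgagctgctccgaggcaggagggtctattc
A DR5 match stood in 31 of the 27025 genes of the promoter table (0.115%), in 6 of the 9604 genes measured here that have a promoter in it (0.0625%), and in 2 of the 12 measured direct RA targets with one (16.7%), namely Cyp26a1 and Rarb. Of the 15 genes with the most negative differences described below, 9 had a promoter in the table, and neither DR5 nor the same repeat with a spacer of 2 bases (DR2, in 0.311% of all genes of the table) or 1 base (DR1, 0.263%) was found in these windows. That says only that these letters are not in the windows. A match describes letters in the window and is no evidence of binding.

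Levels are reads per 10000000 reads counted in genes, called normalised reads. The RA response of a line is the log2 of its RA level over its untreated level, with 10 added to each level, and the difference in response is the response in shRxr minus that in shGFP. A negative difference therefore means that RA raised a gene less, or lowered it more, in shRxr. Adding 10 shrinks the response of genes at low levels, and can make the difference between lines smaller or larger in size. With 1 added, that of Cyp26b1 was -2.99 in place of -3.32, and that of Hoxb6 -3.25 in place of -2.90. A gene was measured if its mean over all 6 libraries reached 20, as it did for 12332 of 25904. At that limit Trim21 and Mlkl, with means of 20.008 and 20.010, were kept, and Vstm2a and Pgc, with 19.995 and 19.982, were not. A difference was counted at 1 or more in size, which is 2-fold.

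Rxra, 1 of 3 retinoid X receptor genes, was far lower in the shRxr line. Rxra (ENSMUSG00000015846, mm9 chromosome 2, 27531960 to 27618477) was found at 82.4 normalised reads in shRxr_RA and 73.7 in shRxr_UT, against 805 in shGFP_RA and 520.3 in shGFP_UT. It was 9.78-fold lower in shRxr_RA than in shGFP_RA (7.81 to 12.4) and 7.06-fold lower untreated (5.65 to 8.93). Its paralog Rxrb stood at 546 in shRxr_RA and 638 in shRxr_UT, against 673 in shGFP_RA and 605 in shGFP_UT, and Rxrg, at 8.04 and 10.9 in shRxr against 4.50 and 18.5 in shGFP, was under the limit on the mean. The RA receptors that pair with them were present in both lines. Rara stood at 1138 in shRxr_RA and 1162 in shRxr_UT, against 1445 in shGFP_RA and 1091 in shGFP_UT, and Rarg at 3411 in shRxr_RA and 3766 in shRxr_UT, against 2534 in shGFP_RA and 2791 in shGFP_UT.

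The libraries held between 9955808 and 13322506 reads in genes, with shRxr_RA the shallowest. The pluripotency factor Pou5f1, which marks undifferentiated F9 cells, stood at 13335 in shRxr_RA and 18536 in shRxr_UT, against 8529.9 in shGFP_RA and 18172 in shGFP_UT. Of the markers of other cells, Ptprc, of all white blood cells, was at 0 or 1 read in each of the 4 libraries, and the fibroblast collagen Col3a1 likewise. Of 12 fibroblast markers 4 were measured, and the whole list summed to 2127 and 1070.5 normalised reads in shRxr_RA and shRxr_UT, against 3232 and 892 in shGFP_RA and shGFP_UT. Of 13 blood and immune markers 3 were measured, and that list summed to between 1362 and 1692. A lower level in such bulk samples cannot tell fewer responding cells from less RNA per cell.

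The RA response was smaller in shRxr in both directions. A difference of -1 or less was found for 551 genes (4.47% of those measured) and one of 1 or more for 690 (5.60%). Of the 551, 286 (51.9%) were raised at least 2-fold in shGFP and stayed under 2-fold in shRxr, and 230 more (41.7%) were raised at least 2-fold in both lines but less in shRxr. Of the 690, 441 (63.9%) were lowered at least 2-fold in shGFP and stayed under 2-fold in shRxr, 45 (6.52%) were lowered less, and 186 (27.0%) were under 2-fold in both lines. A high shGFP_RA level makes the difference more negative and a low one more positive. These classes, and the responses of the most extreme genes below, are therefore a description only. Among the counted genes a larger response in shRxr was rare. Of the 690 no gene responded at least 2-fold in both lines and more strongly in shRxr, and of the 551 there was 1, Pitpnm3, looked up after its class was counted, which stood at 5.02 in shRxr_RA and 70.3 in shRxr_UT, against 52.5 in shGFP_RA and 147 in shGFP_UT (corrected difference, as defined below, -0.80). RA alone raised 649 genes at least 2-fold in shRxr (5.26%), against 1649 in shGFP (13.4%), and lowered 180 (1.46%) in shRxr against 872 (7.07%) in shGFP.

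**Figure D1:**
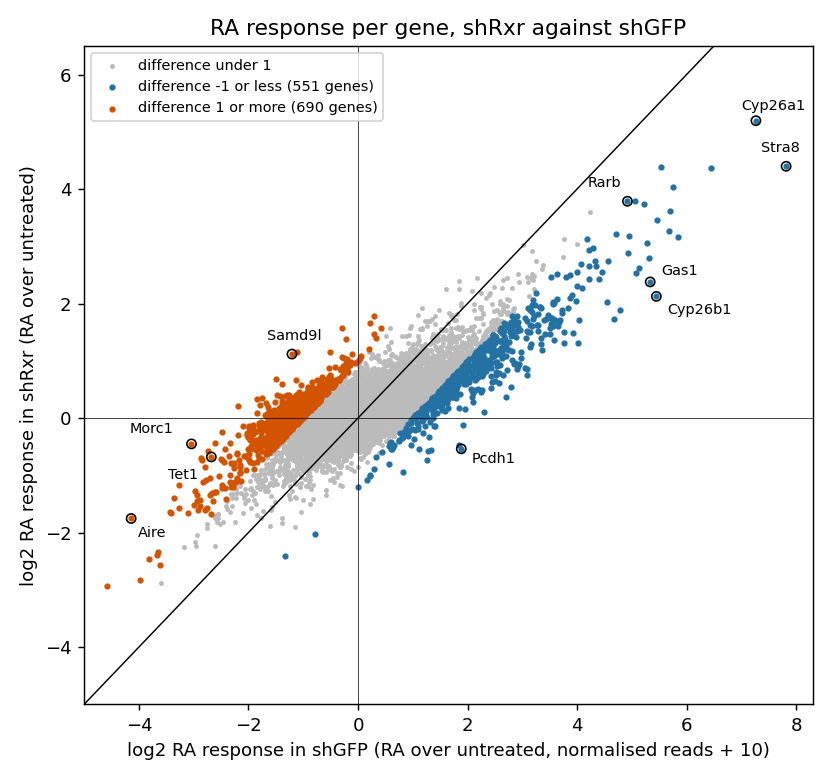
Log2 RA response of 12332 genes in shRxr (vertical axis) and in shGFP (horizontal axis), 1 library per group, with 10 added to each level. The diagonal marks equal responses. Genes with a difference of -1 or less (551, blue) lie below it on the right and those with 1 or more (690, orange) above it on the left. Both clouds are tilted towards no response in shRxr, but the side of the diagonal follows from how the genes were picked.

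The differences followed the GC content of the genes, and this touches the counts in both directions. Across 12133 genes with a transcript sequence, the difference had a Spearman correlation of -0.53 with GC content and 0.16 with length. The shGFP response itself correlated with GC content at 0.37 and the shRxr response at -0.06. Genes with a difference of 1 or more had a median GC content of 40.9%, those with -1 or less 55.0%, and all genes 50.1%. Of the 2427 genes in the lowest of 5 GC quintiles 519 had a difference of 1 or more and 15 of -1 or less, and of the 2427 in the highest 23 and 234. After removal of a smooth trend in GC content and length from each library, 237 genes had a difference of 1 or more (1.95%) and 386 of -1 or less (3.18%), so that 38.0% of the counted differences were positive, against 55.6% without it. Of the 690 and 551 genes 163 and 287 stayed counted. In the lowest GC quintile the median shGFP response was -0.34 without the removal and 0.14 with it, and the median shRxr response 0.15 and 0.12. Genes raised or lowered within 1 line were not counted again after it. In RA, 389 of the 690 were at least 2-fold higher in shRxr than in shGFP, and 2 were at least 2-fold lower untreated. Set against the mean of the 6 libraries, the levels correlated with GC content at 0.25 in shGFP_RA and 0.65 in shCtbp2_RA, and at -0.44 to -0.40 in the other 4. A trend of single libraries and an RA response that itself follows GC content cannot be told apart in this design, and corrected values are given below beside the groups they touch.

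To compare the lines on genes not chosen in either of them, genes were taken by their response in the shCtbp2 line, whose libraries enter neither response. This choice is not free of the GC trend, which shCtbp2_RA shares with shGFP_RA. The 1864 genes that RA raised at least 2-fold in shCtbp2 had a median log2 response of 0.58 in shRxr and 1.21 in shGFP, and 1742 of them (93.5%) responded less in shRxr, as did 58.0% of all genes. Of the 1864 genes 430 had a difference of -1 or less and 2 of 1 or more. The median difference was -0.62, and between -0.67 and -0.44 in every GC quintile. After the correction 242 genes had a difference of -1 or less and 4 of 1 or more, and the median was -0.38, between -0.84 and -0.29 by quintile. Genes raised at least 4-fold in shCtbp2, 388 in number, had medians of 1.31 in shRxr and 2.39 in shGFP.
The 2377 genes that RA lowered at least 2-fold in shCtbp2 had a median of -0.01 in shRxr and -0.61 in shGFP. Here 1190 of the genes lay in the lowest GC quintile, where the median difference was 0.82, and in the other quintiles it was between 0.23 and 0.42. After the correction it was between 0.26 and 0.65 in all 5. Because the genes were chosen through shCtbp2_RA, these values do not tell the GC trend of the libraries from the RA response.

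**Figure D2:**
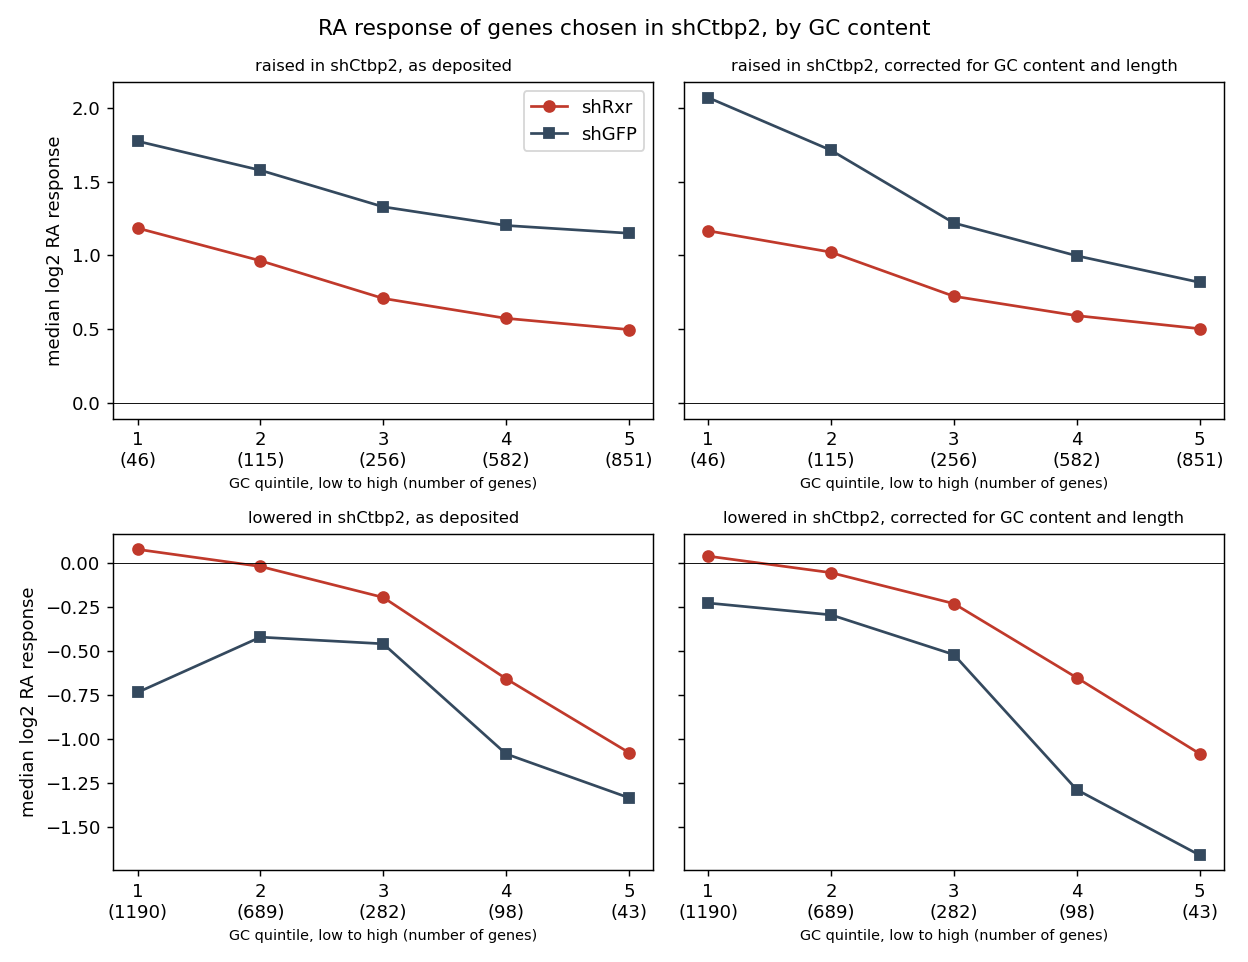
Median log2 RA response in shRxr (red) and shGFP (dark) of genes raised (top) or lowered (bottom) at least 2-fold by RA in shCtbp2, by GC quintile from low to high, with the number of genes in each. Left panels are as deposited and right panels corrected for GC content and length. In each of the 20 pairs of points the shRxr median lies nearer to 0.

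Most direct RA targets and genes of retinoid metabolism were raised less in shRxr. Of 24 listed genes 20 were measured. The difference was -1 or less in 14 of the 20 and 1 or more in none, against 4.47% and 5.60% of all genes. Members with untreated levels near 0, such as Cyp26a1 and Cyp26b1, reached the limit on the mean mainly through RA libraries. A high shGFP_RA level helps a gene past that limit and also makes its difference more negative, so this count is a description only. The list's median response was 1.88 in shRxr and 3.66 in shGFP, with a median difference of -1.36 (-0.09 over all genes). After correcting for GC content and length 11 of the 20 stayed at -1 or less and the median was -1.21. In all, 13 of the 20 were still raised at least 2-fold in shRxr (5.26% of all genes), against 16 in shGFP (13.4% of all genes).

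The enzymes that break RA down reached far lower levels with RA in shRxr. Cyp26b1 (ENSMUSG00000063415, mm9 chromosome 6, 84521938 to 84543740), an RA hydroxylase, measured 48.2 normalised reads in shRxr_RA and 3.35 in shRxr_UT, against 743 in shGFP_RA and 7.25 in shGFP_UT. The untreated levels, from 4 and 9 reads, were alike in being near 0, and the RA level in shRxr was far below that in shGFP. The RA fold was 7.12-fold smaller in shRxr (1.54 to 26.5), and the difference in log2 response -3.32. Cyp26a1 (ENSMUSG00000024987, mm9 chromosome 19, 37772298 to 37776018), of the same family and one of the promoters printed above, measured 509 normalised reads in shRxr_RA and 4.18 in shRxr_UT, against 2894 in shGFP_RA and 8.86 in shGFP_UT. In RA it was 5.68-fold lower in shRxr than in shGFP (5.18 to 6.25), but its untreated levels were too low for the ratio of the RA folds to be told from 1 (2.68, 0.728 to 8.42). Cyp26c1 stood at 35.2 in shRxr_RA and 5.86 in shRxr_UT, against 137 in shGFP_RA and 0.805 in shGFP_UT, the last from 1 read, with a difference of -2.25.

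Among other genes of retinoid handling, Crabp2, which carries RA to the nucleus, stood at 206 in shRxr_RA and 14.2 in shRxr_UT, against 1399 in shGFP_RA and 14.5 in shGFP_UT. Its untreated levels were alike and its RA fold was 6.67-fold smaller in shRxr (3.17 to 13.9). Dhrs3, which reduces retinaldehyde to retinol, had a difference of -1.57. Stra6, the retinol uptake receptor, had one of -1.14, but with 2 reads in shRxr_UT and 8 in shGFP_UT, and its RA fold without the added 10 was 139.8-fold (38.3 to 1161) in shRxr and 116-fold (58.7 to 269.8) in shGFP. Stra6 lost its call with 1 added in place of 10 (difference -0.20) and after the correction (-0.82). Nrip1, a coregulator that RA induces, had a log2 response of 2.15 in shRxr and 2.38 in shGFP.

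For the receptor gene Rarb (ENSMUSG00000017491, mm9 chromosome 14, 17263356 to 17651381), whose promoter is printed above, the levels were 301 normalised reads in shRxr_RA and 12.6 in shRxr_UT, against 390.3 in shGFP_RA and 3.22 in shGFP_UT. The RA level was 1.30-fold lower in shRxr (1.12 to 1.5) and the untreated level was higher in shRxr, by 3.90-fold (1.24 to 16.1). The difference was -1.13, and the RA fold was 5.05-fold smaller in shRxr (1.59 to 21.0).

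A higher untreated level was the larger part of the difference for Stra8 and a few other targets. Stra8 (ENSMUSG00000029848, mm9 chromosome 6, 34870163 to 34889342), a gene of the entry into meiosis, had the most negative difference of the genes whose mean reached 50, -3.42. It stood at 4259 normalised reads in shRxr_RA and 193 in shRxr_UT, against 6428 in shGFP_RA and 18.5 in shGFP_UT. The untreated level was 10.4-fold higher in shRxr (6.76 to 16.7), while the RA level was 1.51-fold lower (1.45 to 1.57). RA thus raised Stra8 22.1-fold (19.4 to 25.4) in shRxr and 347-fold (231 to 548) in shGFP.
Cdx1, a caudal homeobox factor, showed the same pattern at 763 in shRxr_RA and 60.3 in shRxr_UT, against 999.8 in shGFP_RA and 12.9 in shGFP_UT. So did Gpr124, an adhesion receptor, at 1302 in shRxr_RA and 216 in shRxr_UT, against 1866 in shGFP_RA and 45.9 in shGFP_UT. Foxa1, a forkhead factor that opens chromatin, stood at 186 in shRxr_RA and 21.8 in shRxr_UT, against 513 in shGFP_RA and 4.83 in shGFP_UT, higher untreated in shRxr but with the larger part of its difference in the RA level. Of the 551 genes with a difference of -1 or less, 28 were at least 2-fold higher untreated in shRxr than in shGFP, where 48 of all 12332 genes were (0.389%) and 8 were at least 2-fold lower (0.0649%). A high shRxr_UT level enters the difference with a minus sign, so this count is a description only. In RA, 249 of the 551 were at least 2-fold lower in shRxr. The untreated part was the larger one in 83 (15.1%).

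**Figure D3:**
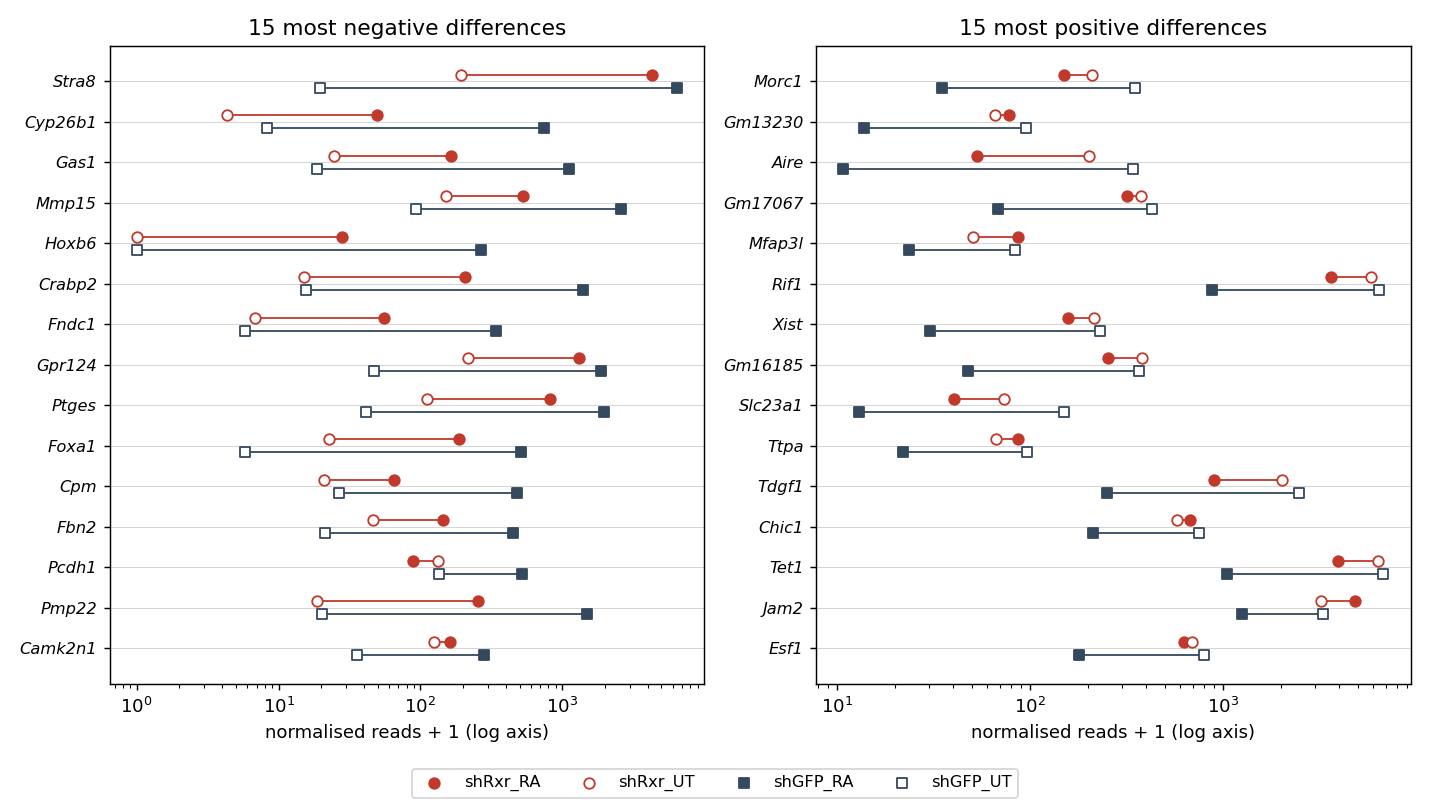
Normalised reads plus 1 (log axis) of the 15 genes with the most negative (left) and most positive (right) differences in RA response among genes whose mean reached 50, in shRxr (red circles, upper line) and shGFP (dark squares, lower line), filled for RA and open for untreated, 1 library each. In the left panel the shRxr lines are shorter, and in Stra8, Gpr124 and Camk2n1 the open circle lies far right of the open square. In the right panel the open symbols lie close together and the filled square lies far to the left of the filled circle.

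Of the 15 genes with the most negative differences (-2.34 to -3.42), all were raised at least 2-fold in shGFP and 13 also in shRxr. In 12 the RA level was at least 2-fold lower in shRxr, and in 5 the untreated level was at least 2-fold higher. All 15 stayed at -1 or less after correcting for GC content and length, between -3.27 and -2.08. Gas1 (ENSMUSG00000052957, mm9 chromosome 13, 60275766 to 60278726), a membrane protein that helps hedgehog ligands bind, measured 164 normalised reads in shRxr_RA and 23.4 in shRxr_UT, against 1109 in shGFP_RA and 17.7 in shGFP_UT. It was near its shGFP level when untreated and far below it in RA, with an RA fold 8.96-fold smaller in shRxr (4.81 to 16.8). Of 14 measured genes of the hedgehog pathway Gas1 was the 1 with a difference of -1 or less, and the list's median was -0.49. Over all genes 4.47% were at -1 or less, and 1 gene of 14 cannot be set apart from such a share.

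Mmp15, a membrane-bound matrix metalloproteinase, stood at 527 in shRxr_RA and 151 in shRxr_UT, against 2602 in shGFP_RA and 91.8 in shGFP_UT, and its RA fold was 8.14-fold smaller in shRxr (6.28 to 10.6). Hoxb6 had no read in either untreated library and 27.1 normalised reads in shRxr_RA, against 266 in shGFP_RA. RA raised Hoxb6 at least 10.8-fold in shRxr and at least 110.3-fold in shGFP, against a floor of 3 reads per library. These bounds are no measure of the difference, but the RA level itself was 9.83-fold lower in shRxr (6.64 to 15.1). Ptges, which makes prostaglandin E2, stood at 818 in shRxr_RA and 109.6 in shRxr_UT, against 1982 in shGFP_RA and 40.3 in shGFP_UT.
Pmp22, a myelin membrane protein, stood at 255 in shRxr_RA and 17.6 in shRxr_UT, against 1497 in shGFP_RA and 19.3 in shGFP_UT. Fndc1 had a difference of -2.53, Cpm, a carboxypeptidase of the cell surface, one of -2.46, and Fbn2, or fibrillin-2 of the extracellular microfibrils, one of -2.45. For Pmp22, Fndc1 and Cpm the untreated levels of the lines were close (log2 difference -0.25 for Cpm) and the RA levels far apart. For Camk2n1, an inhibitor of the kinase CaMKII, the untreated level was 3.55-fold higher in shRxr (2.51 to 5.11). Pcdh1, a protocadherin, went opposite ways, at 87.4 in shRxr_RA and 131 in shRxr_UT, against 521 in shGFP_RA and 134 in shGFP_UT.

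Hox genes, which pattern the body axis, were raised by RA in both lines and less in shRxr. All 10 measured anterior Hox genes, of 15 listed, were raised at least 2-fold in both lines, and the difference was -1 or less in 9 (9 after the correction). Over all genes 4.47% were at -1 or less (3.18% after the correction). RA raised 13.4% of all genes at least 2-fold in shGFP and 5.26% in shRxr. The 15 summed to 111 normalised reads in shRxr_UT and 54.8 in shGFP_UT, against 1699.5 in shRxr_RA and 4064 in shGFP_RA. Most could reach the limit on the mean only through RA libraries, so that limit itself favoured raised genes. The median response was 2.93 in shRxr and 4.39 in shGFP, with a median difference of -1.54 (corrected -1.25). Hoxb1, an early RA target, stood at 123 in shRxr_RA and 0.837 in shRxr_UT, against 551 in shGFP_RA and 0.805 in shGFP_UT. With 1 read in each untreated library its RA level carries the comparison, and this was 4.50-fold lower in shRxr (3.71 to 5.49).
Hoxd1, with a difference of -0.82, was the measured member outside the count. Of 24 posterior Hox genes 9 were measured and 5 had a difference of -1 or less (3 after the correction), among them Hoxb9 at 233 in shRxr_RA and 62.8 in shRxr_UT, against 671 in shGFP_RA and 48.3 in shGFP_UT. Of the Hox cofactors, which bind DNA with Hox proteins, all 9 had a negative difference, 2 of them of -1 or less, among them Meis1 (-1.77), and 4 after the correction. Over all genes 58.0% had a negative difference and 4.47% one of -1 or less.

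**Figure D4:**
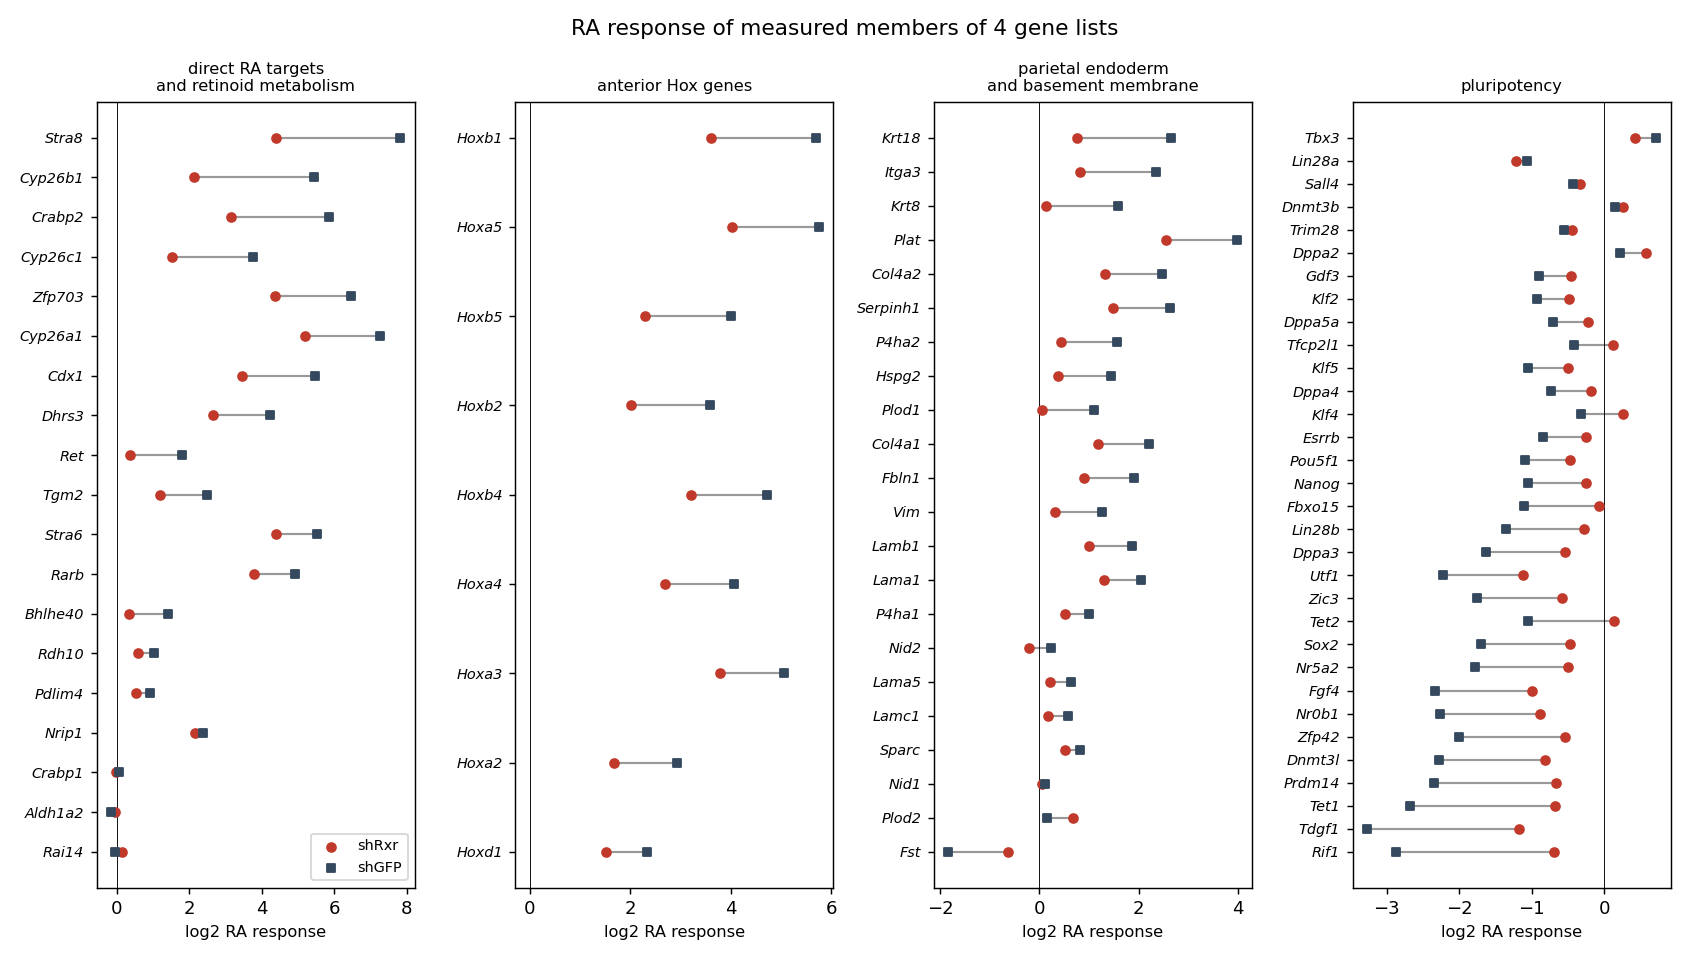
Log2 RA response of measured members of 4 gene lists in shRxr (red circles) and shGFP (dark squares), ordered by the difference, 1 library per group. The red circles lie left of the squares for all but 2 of the direct RA targets shown, all anterior Hox genes shown and 20 of 22 parietal endoderm genes, and right of them for 30 of 32 pluripotency genes.

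Counted differences in the 3 endoderm lists were mostly negative, in 4 of 12, 10 of 22 and 1 of 10 measured genes. Over all genes 4.47% were at -1 or less and 5.60% at 1 or more, and 1 gene of 10 cannot be set apart from such a share. Of the 12 regulators of primitive endoderm 10 were raised at least 2-fold in each line, and 4 had a difference of -1 or less, among them Foxa2 (-1.79), Foxq1 (-1.69) and Sox7 (-1.13). After the correction 2 of the 12 were at -1 or less and 1 was at 1 or more, and Sox7 (-0.97) was just under the count. The list's median response was 1.79 in shRxr and 2.63 in shGFP. Gata6, a master factor of this lineage, stood at 447 in shRxr_RA and 27.6 in shRxr_UT, against 739 in shGFP_RA and 29.8 in shGFP_UT. Its RA fold was 16.2-fold (11.4 to 23.8) in shRxr and 24.8-fold (17.9 to 35.4) in shGFP, with overlapping intervals. Gata4, its partner, stood at 452 in shRxr_RA and 135 in shRxr_UT, against 883 in shGFP_RA and 155 in shGFP_UT, with an RA fold 1.69-fold smaller in shRxr (1.33 to 2.16).

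The list of parietal endoderm and its basement membrane had more counted differences than the other endoderm lists before the correction. It also holds genes outside the basement membrane, among them keratins. Of 22 measured genes 14 were raised at least 2-fold in shGFP and 5 in shRxr, and 10 had a difference of -1 or less. After correcting for GC content and length 5 of the 22 were counted, 4 of them (Krt18, Plat, Itga3 and Krt8) from the 10, and the median difference was -0.71, against -0.97 without it. The type IV collagen gene Col4a1 stood at 4553 in shRxr_RA and 1990.3 in shRxr_UT, against 8672 in shGFP_RA and 1872 in shGFP_UT, and its RA fold was 2.03-fold smaller in shRxr (1.89 to 2.17). Serpinh1, the collagen chaperone, stood at 4138 in shRxr_RA and 1471 in shRxr_UT, against 7421 in shGFP_RA and 1186 in shGFP_UT. The corrected differences of Col4a1 and Serpinh1 were -0.72 and -0.82, under the count. The simple-epithelium keratins Krt8 and Krt18 had differences of -1.46 and -1.90. Krt8 stood at 332 in shRxr_RA and 304 in shRxr_UT, against 922 in shGFP_RA and 299.6 in shGFP_UT, so that its level hardly differed between the treatments in shRxr. Fst, the activin antagonist, was the 1 member with a difference of 1 or more (1.19), being lowered less in shRxr, and was under the count after the correction (0.96). Of 10 measured visceral endoderm genes 1, Cited1 (-1.06), was counted (corrected -0.71), and the median was -0.77. After the correction the median was -0.44, none was at -1 or less and 1 was at 1 or more. The summed fibroblast markers given above, of which Fbln1 also stands in the parietal endoderm list, were likewise higher with RA and less so in shRxr, and their part in the result was not tested.

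Pluripotency genes were lowered less in shRxr. All 32 listed genes were measured, 16 had a difference of 1 or more and none of -1 or less, against 5.60% and 4.47% of all genes. In shRxr 3 of the 32 were lowered at least 2-fold (1.46% of all genes), against 20 in shGFP (7.07% of all genes). The median response was -0.47 in shRxr and -1.08 in shGFP. After the correction 11 stayed at 1 or more and the median difference was 0.87, against 0.92 without it. Their untreated levels were close, with a median log2 difference of -0.06 between the lines.

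Tdgf1 (ENSMUSG00000032494, mm9 chromosome 9, 110842114 to 110848662), or Cripto, the co-receptor of Nodal, measured 892 normalised reads in shRxr_RA and 2023 in shRxr_UT, against 248 in shGFP_RA and 2483 in shGFP_UT. RA left it 2.27-fold lower (2.10 to 2.45) in shRxr and 9.99-fold lower (8.92 to 11.2) in shGFP. Zfp42, also called Rex1, stood at 6197 in shRxr_RA and 8979.8 in shRxr_UT, against 2201 in shGFP_RA and 8843 in shGFP_UT. Sox2, a partner of Pou5f1 on DNA, stood at 3107 in shRxr_RA and 4316 in shRxr_UT, against 1480.2 in shGFP_RA and 4845 in shGFP_UT, and RA left it 1.39-fold lower (1.33 to 1.45) in shRxr and 3.27-fold lower (3.11 to 3.45) in shGFP. All 3 kept their counted difference after the correction (1.93, 1.38 and 1.36).
Tet1, which oxidises methylated cytosine, stood at 3950.5 in shRxr_RA and 6334 in shRxr_UT, against 1051 in shGFP_RA and 6782 in shGFP_UT, with a difference of 2.0 (corrected 1.48). Prdm14 (1.69), Dnmt3l (1.47), Nr0b1 (1.39) and Fgf4 (1.35) were also counted. Nanog, at 6929.6 in shRxr_RA and 8245 in shRxr_UT, against 3258 in shGFP_RA and 6748 in shGFP_UT, and Pou5f1, with a difference of 0.62, were not.

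**Figure D5:**
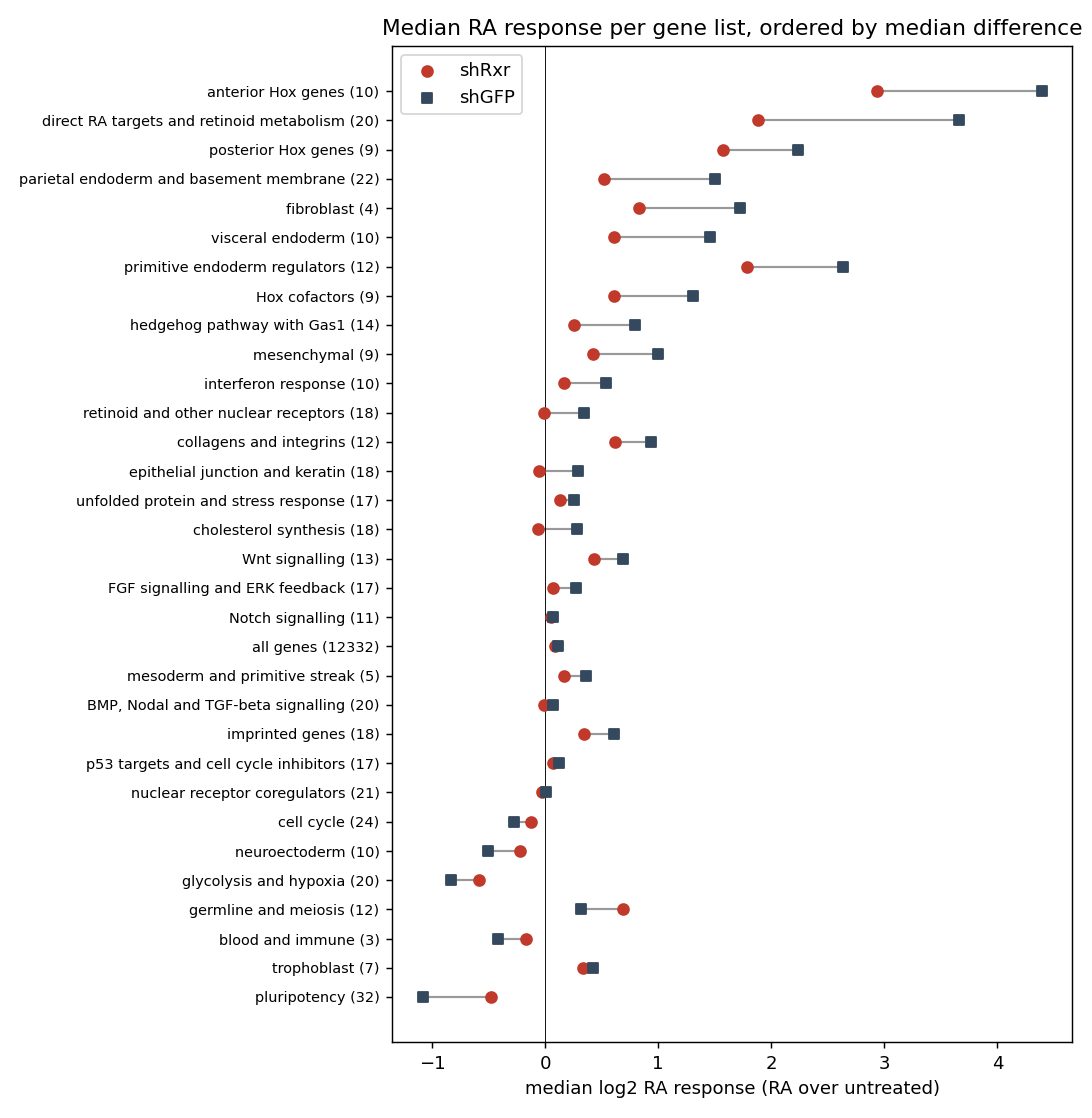
Median log2 RA response of each gene list and of all genes in shRxr (red circles) and shGFP (dark squares), ordered by the median difference, with the number of measured genes in parentheses. Anterior Hox genes and direct RA targets stand at the top and pluripotency genes at the bottom, and for all genes the points nearly coincide.

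Of the 15 genes with the most positive differences (1.98 to 2.59), all 15 were lowered at least 2-fold in shGFP and 2 in shRxr, Aire and Tdgf1. In each the shRxr_RA level was at least 2-fold above shGFP_RA and the untreated levels were within 2-fold. Their median GC content was 41.4%, with 14 of the 15 under the median of all genes, and 14 stayed at 1 or more after the correction. Aire (ENSMUSG00000000731, mm9 chromosome 10, 77492767 to 77506355), the autoimmune regulator of the thymus, is the exception in GC content at 58.2%. It measured 52.2 normalised reads in shRxr_RA and 200.03 in shRxr_UT, against 9.76 in shGFP_RA and 339 in shGFP_UT. RA left it 3.83-fold lower (2.83 to 5.27) in shRxr and 34.7-fold lower (20.1 to 65.8) in shGFP, and its difference was 2.39 (corrected 2.74).

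Morc1 (ENSMUSG00000022652, mm9 chromosome 16, 48431350 to 48631018), which silences transposons in the germline, measured 149.7 normalised reads in shRxr_RA and 208 in shRxr_UT, against 33.8 in shGFP_RA and 350.4 in shGFP_UT. It had the most positive difference, 2.59 (corrected 2.38). Rif1, a factor of replication timing, stood at 3617 in shRxr_RA and 5845 in shRxr_UT, against 875 in shGFP_RA and 6460.2 in shGFP_UT, with a difference of 2.18 (corrected 1.42). Slc23a1, a vitamin C transporter, had 2.12 (corrected 2.15). Jam2, a junctional adhesion molecule, stood at 4829 in shRxr_RA and 3211 in shRxr_UT, against 1251 in shGFP_RA and 3297 in shGFP_UT, and so was higher with RA in shRxr and lower in shGFP.
Xist, the RNA that silences an X chromosome, had a difference of 2.18 (corrected 1.4), Ttpa, which transports vitamin E, one of 2.10 (1.42), and Esf1, of ribosomal RNA processing, one of 1.98 (1.28). The others were Mfap3l, Chic1 and the unnamed genes Gm13230, Gm17067 and Gm16185, of which Gm16185 was under the count after the correction (0.87). Of 156 measured lincRNAs 26 (16.7%) had a difference of 1 or more and 1 of -1 or less (0.641%), against 5.60% and 4.47% of all genes. GC content was known for 82 of the 156. After the correction 9 of these 82 were at 1 or more and 1 at -1 or less. Over all corrected genes the shares were 1.95% and 3.18%. The other lincRNAs have no corrected value, so the counts with and without the correction are not over the same genes.

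In the neuroectoderm list 4 of 10 measured genes had a difference of -1 or less, against 4.47% of all genes. They were Gbx2 (-2.31), Sox3 (-1.51), Nes (-1.10) and Pax6 (-1.04), and 1 gene had a difference of 1 or more, against 5.60%. That gene was Otx2, a factor of the forebrain, at 42.2 in shRxr_RA and 388 in shRxr_UT, against 22.5 in shGFP_RA and 772 in shGFP_UT. Differences were positive in 6 of the 10 genes, and the list's median was 0.17 (corrected 0.32). Nes and Pax6 had -0.83 and -0.98 after the correction, with which 2 genes of the list were at -1 or less and 2 at 1 or more. In the germline list the cohesin gene Rec8, a known RA target, had a difference of -1.72 beside Stra8. Dazl (1.5) and Sycp1 (1.58), of the germ cell and the synaptonemal complex, had positive ones, which were 0.60 and 0.40 after the correction. Of 18 measured epithelial genes 6 had a difference of -1 or less, among them Krt19 (-1.52) and Ocln (-1.24). Esrp1 (1.25), a splicing factor of epithelia, had one of 1 or more. Krt18, counted above under parietal endoderm, is also in this list. After the correction 4 of the 18 were at -1 or less, and the median was -0.07, against -0.31 without it.

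Among signalling, imprinted and cell cycle genes the counts were small. Over all genes 5.60% were at 1 or more and 4.47% at -1 or less, and a count near these shares is no result about a list. Of 20 measured genes of BMP, Nodal and TGF-beta signalling 2 had a difference of 1 or more, the ligand Bmp4 (1.45, corrected 1.67) and Fst, which the correction put under the count, and 1 of -1 or less, the inhibitor Smad6 (-1.59). Bmp4 stood at 373 in shRxr_RA and 1017 in shRxr_UT, against 163 in shGFP_RA and 1259.7 in shGFP_UT. Of 17 measured genes of FGF signalling 2 were counted in each direction, Fgf4 and the feedback inhibitor Spry4 (1.21) upwards and Dusp5 (-1.14) and Fgfr4 (-1.03) downwards, with -0.81 and -0.67 for these after the correction. No gene of the Wnt (13 measured), Notch (11), cholesterol synthesis (18), stress response (17) or coregulator (21) lists was counted in either direction, although with 1 added in place of 10 the Wnt list had 1 of -1 or less and the Notch list 1 in each direction, and after the correction the coregulator and Notch lists had 1 of 1 or more each.
Imprinted genes had 3 differences of -1 or less among 18 measured, Dlk1 (-2.04), Ndn (-1.25) and the growth factor Igf2 (-1.06, corrected -0.76), and 2 of 1 or more, Impact and Ube3a, which had 0.61 and 0.07 after the correction. In the cell cycle list, of 24 measured, Ccnd2 (-1.14) was counted downwards and Ccne2, Mki67 and Bub1 upwards, of which none stayed at 1 or more after it.

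Among the counted genes a response to RA in shRxr alone was seen in few. Over all measured genes, 69 of the 649 raised at least 2-fold in shRxr (10.6%) changed less than 2-fold in shGFP. So did 23 of the 180 lowered at least 2-fold in shRxr (12.8%). Of the genes counted, 20 responded at least 2-fold in shRxr and under 2-fold in shGFP, 16 with a more positive and 4 with a more negative response, and 6 of the 20 stayed counted after the correction, all upwards. Named after their values were seen, Ly6a, the Sca-1 antigen, stood at 331 in shRxr_RA and 152 in shRxr_UT, against 102 in shGFP_RA and 127 in shGFP_UT (difference 1.37, corrected 1.35), and Reps2 at 91.4 in shRxr_RA and 24.3 in shRxr_UT, against 22.5 in shGFP_RA and 29.8 in shGFP_UT (1.86, corrected 1.36). Another 2 genes responded at least 2-fold in opposite directions, Samd9l, at 93.4 in shRxr_RA and 37.7 in shRxr_UT, against 18.8 in shGFP_RA and 56.4 in shGFP_UT, and Kcnh7, at 103 in shRxr_RA and 41.0 in shRxr_UT, against 12.8 in shGFP_RA and 39.5 in shGFP_UT. Both were raised in shRxr and lowered in shGFP. After the correction the shGFP responses were under 2-fold (log2 -0.51 for Samd9l and -0.35 for Kcnh7).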

How the data were processed

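TruSeq RNA libraries of F9 cells were read on a HiSeq 2000, per the labels' protocols. The submitters' processing notes name TopHat 1.4, HTSeq and build mm9. How HTSeq treated strand and overlaps, and with which annotation, is not given in the sources used here, so overlapping and antisense genes cannot be told apart. The deposited table holds log2 values that the authors made from reads scaled to 10000000 per library, plus 1. Unlogged values were whole multiples of 1 read for 100% of values, within 0.001 of a read, which gave the depths: 9955808 (shRxr_RA), 11947894 (shRxr_UT), 13322506 (shGFP_RA) and 12416100 (shGFP_UT). No column was left over. A few list members are counted but not reported here by name. Date-like symbols, 25 in all, were restored from gene identifiers.

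With 1 library per group no test was possible, and no p-value is given. Intervals are 95%: Clopper-Pearson for a fold between 2 libraries, and the conditional exact interval of the odds ratio for a ratio of 2 folds. Folds and ratios have no value added. GC content and length are those of the longest GENCODE M21 transcript (98.4% of genes measured). For the correction, a polynomial of degree 3 in GC content and in log2 length was fitted to each library's deviation from the mean of 6 libraries and removed. The calculation was tested on simulated data. Tools were Python 3.11.15 with scipy 1.17.1, numpy 2.4.6, matplotlib 3.10.9 and pandas 2.3.3.

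Genes were named by a rule: the 15 most positive and 15 most negative differences among genes whose mean reached 50 and whose symbol is unique, Stra8, Cyp26b1, Gas1, Aire, the retinoid receptors, genes next to the limit on the mean, and members of 31 gene lists. The comparison, lists and rule were chosen with earlier results of these data known. Alternatives were an added value of 1 or 50, no limit on the mean or one of 100, upper-quartile and median-of-ratios scaling, the correction, and a 4-fold threshold.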

Additional observations from a re-analysis of the deposited data

Results flagged for a closer look

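Some genes named above or counted in the lists went opposite ways with RA in the lines, with both counting intervals away from no change. With 1 library per group the difference was not tested. Higher with RA in shRxr and lower in shGFP were Samd9l (difference 2.32), Kcnh7 (2.27), Mfap3l (2.19), Chic1 (2.0), Jam2 (1.98), Sycp1 (1.58), Tet2 (1.2), Mki67 (1.16), Trp53inp1 (1.16), Ccne2 (1.03) and Impact (1.02). Lower with RA in shRxr and higher in shGFP were Pcdh1 (-2.42) and Rxrb (-0.37). After the correction for GC and length 11 of these 13 still had opposite signs, without a new look at the intervals. Some were then near no change in 1 line, as Sycp1 (-0.06 in shGFP), Tet2 (0.07 in shRxr) and Trp53inp1 (0.08 in shRxr). Rxrb then had a log2 response of -0.24 in shRxr and -0.24 in shGFP, and Ccne2 one of 0.60 in shRxr and 0.54 in shGFP.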

How the results depend on the processing

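The counts of 690 more positive and 551 more negative responses became 380 and 221 with 50 added in place of 10, and 15 and 39 at a 4-fold threshold. With a mean of at least 100 the more negative count was 281, where 9515 genes are measured in place of 12332, and corrected for GC content and length the more positive count was 237. The median difference of all genes, -0.09, was -0.0751 with 50 added, -0.0207 with no limit on the mean and -0.0306 after the correction. Equal upper quartiles (682 and 551) and median-of-ratios scaling (669 and 552) left the counts within 1.5 times. Of 31 differences at 1 or more in size among the 30 most extreme genes, the markers and the retinoid receptors, 30 stayed so after the correction and 30 with 50 added. Of the 100 counted members of all gene lists (32 positive, 68 negative) 60 (16 and 44) stayed counted after the correction, 68 with 50 added and 98 with 1 added. No counted member changed sign under these 3 settings. With 1 added the posterior Hox list had a more negative median (-1.89) than the direct RA targets (-1.61), and with 50 added the direct RA targets (-1.11) one more negative than the anterior Hox genes (-1.07). List medians of mesoderm and primitive streak (0.18), BMP, Nodal and TGF-beta signalling (0.11) and Notch signalling (0.10) turned positive after the correction. The median of the posterior Hox genes was -0.40 with 50 added, against -1.03. No paired analysis was possible because each group has 1 library. Depth limits genes with few untreated reads, for which the ratio of folds has a wide interval.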

Other observations

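Lists not described above held few counted differences, to be read beside 5.60% of all genes at 1 or more and 4.47% at -1 or less. Of 20 measured genes of glycolysis and hypoxia 7 were lowered by RA at least 2-fold in shGFP and none in shRxr, against 7.07% and 1.46% of all genes. None of 20 cannot be set apart from the shRxr share. The difference was positive in 16, of which 1, Pfkp, a phosphofructokinase, reached 1 and had 0.91 after the correction. Among 18 measured nuclear receptors Nr2f2, or COUP-TFII, had a difference of -1.26 (corrected -1.44), and Nr5a2 and Nr0b1 had positive ones (1.29 and 1.39, corrected 0.95 and 1.69). Of 12 measured collagens and integrins Col13a1 (-1.94) and Itga3 (-1.52) were at -1 or less, also after the correction. In the mesenchymal list Cdh2, or N-cadherin, had -1.06 (corrected -0.99), in the mesoderm list the homeobox gene Evx1 1.35 (corrected 1.72) and in the interferon list Ifi35 -1.02 (corrected -0.76). Of 7 measured trophoblast genes 1, Esx1, was at the limit of -1 and had -0.72 after the correction. Of 17 measured p53 targets and cell cycle inhibitors Pmaip1 (1.01) and Trp53inp1 (1.16) were at 1 or more, with 0.61 and 0.42 after the correction.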
